A study of Mus musculus with 108 samples.

Results

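The genotype effect in mouse liver at ZT2, the time of day 2 h after lights on, was described from 6 RNA sequencing libraries: 3 labelled Bmal1-iKO (iKO) and 3 labelled Bmal1-flox (flox). They were chosen by their tissue, time and genotype labels alone and are 6 of the 108 libraries of a series on liver, kidney and white adipose tissue at 6 times of day. Of 55416 genes in the count table, 13483 had enough reads in these 6 libraries to be tested. All animals were male, of the strain given as C57BL/J, aged 8 to 12 weeks, kept in 12 h of light and 12 h of dark with free access to food and water, and received no treatment. Both genotype names carry the gene Bmal1, whose symbol in the table is Arntl; the flox name points to an allele flanked by recombination sites. The title of the series speaks of the intestine clock, but the labels do not spell out iKO, and neither do they name a Cre driver, the cells it acts in or whether flox animals were littermates. Nor do the labels say that each library is a separate animal, so the p-values measure the spread between these libraries.

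Bmal1 is a transcription factor that, paired with Clock or Npas2, switches on genes with E-box elements, among them the Per, Cry and REV-ERB (Nr1d1, Nr1d2) genes that in turn repress it or its targets. This loop runs in nearly every cell, and in the liver feeding also sets its phase. A liver that burns fat uses the nuclear receptor PPAR-alpha to raise genes that oxidise fatty acids and make ketones. A fed liver uses SREBP factors to raise genes of fatty acid and cholesterol synthesis.

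The targeted gene was low in every library. Arntl had 4.005, 2.21 and 6.41 CPM (read counts scaled to a common library size) in iKO livers, against 2.58, 2.68 and 3.81 CPM in flox livers. The groups overlapped, and the log2 difference, iKO minus flox, was 0.48 (SE 0.39, edgeR adjusted p = 0.718), so Arntl in liver did not tell the 2 genotypes apart and does not check the labels. Hepatocyte markers were abundant in all 6 libraries: the 12 listed markers summed to 62567 to 90675 CPM in iKO livers, against 104763 to 129529 CPM in flox livers. Much of that sum was Alb; without it the 11 other markers summed to 55630, 43408 and 42050 CPM in iKO livers, against 70650, 48998 and 56260 CPM in flox livers, and the groups overlapped. The list's median log2 difference was -0.17, with 3 of 12 positive and the sign changed in 1 alternative. Alb, which encodes albumin, had 35046, 19158 and 29184 CPM in iKO livers, against 58880, 55765 and 55879 CPM in flox livers (log2 difference -1.03, SE 0.28, adjusted p = 0.223). In whole tissue, fewer cells of a type and less RNA per cell cannot be told apart. Alb, like Krt19, Fabp2 and Eno1 further on, was chosen after its values were seen.

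Library totals ran from 16349285 to 21508270 counts. Reads of mitochondrial genes took 9.42, 15.98 and 12.7% of counts in iKO libraries 1, 2 and 3, against 12.0, 16.4 and 23.1% in flox libraries 1, 2 and 3. iKO library 2 stood apart from iKO libraries 1 and 3. It was singled out by its values in these same data. Leaving out the library that differs narrows the spread among iKO livers, so adjusted p-values can fall through that choice alone. Fits without it, here and below, are therefore descriptions and give no separate support. On the first principal component, which held 32.6% of the variance, iKO libraries 1, 2 and 3 scored -43.5, 5.29 and -38.5, against 28.6, 15.1 and 33.0 in the flox libraries. On the second component iKO library 2 scored 54.8, and the other two iKO libraries -25.5 and 5.90. Krt19, a keratin of bile duct cells, was high in iKO library 2: it had 0.325, 21.01 and 0.485 CPM in iKO livers, against 1.56, 2.77 and 6.26 CPM in flox livers. The 8 tested markers of the 11 on that list averaged 1.34, 3.57 and 1.44 log2 CPM in iKO libraries, against 2.66, 2.31 and 3.51 in flox libraries, and the list's summed level was 102 to 154 CPM in iKO livers, against 80.9 to 273 CPM in flox livers. In 5 of the 8 tested markers iKO libraries 1 and 3 lay below every flox library and iKO library 2 did not. That order held in 956 of all 13483 genes tested. The list's median log2 difference was -0.25 with and -1.75 without iKO library 2, and Krt19 fell by 3.10 without it (adjusted p = 0.0328). The part of these cells in the results was not tested.

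Only 5 of the 13483 genes were called (0.0371%) at an adjusted p under 0.05: 3 were higher in iKO livers (0.0223%) and 2 lower (0.0148%). At an unadjusted p under 0.05, 728 genes were higher (5.4%) and 715 lower (5.3%). Among the 3 was Lgals4, a galectin that binds sugars and is best known from gut epithelium. It had 62.7, 96.7 and 130 CPM in iKO livers, against 9.30, 20.6 and 12.1 CPM in flox livers. All 3 iKO livers lay above all 3 flox livers, and the gene rose by a log2 difference of 2.78 (SE 0.35, adjusted p = 0.0327). Ctcflos, a long non-coding RNA, had 23.6, 14.9 and 31.4 CPM in iKO livers, against 5.77, 5.63 and 5.55 CPM in flox livers. It rose by a log2 difference of 2.04 (SE 0.27, adjusted p = 0.0311). Xlr4b, a gene of the X-linked lymphocyte-regulated family, was low: 3.63, 2.77 and 2.48 CPM in iKO livers, against 0.407, 0.268 and 0.194 CPM in flox livers, a log2 difference of 3.33 (SE 0.48, adjusted p = 0.0414). Both levels are uncertain: 4 other genes share an exact stretch of 100 bases with Xlr4b, and Ctcflos overlaps Ctcfl, which lies on the opposite strand and had 35 to 48 counts in iKO libraries, against 9 to 23 counts in flox libraries.

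Most defining markers of gut epithelium were at or near 0. Of 10 genes on the intestinal epithelium list, Lgals4 included, 3 were tested, and Cdx2, Sis, Alpi, Lypd8 and Cdh17 were at 0 in all 6 libraries. Fabp2, a fatty acid binding protein, had 107, 24.1 and 85.1 CPM in iKO livers, against 28.2, 31.7 and 35.8 CPM in flox livers; without iKO library 2 it rose by 1.59 (adjusted p = 0.0017). The summed level of the list was 191 to 281 CPM in iKO livers, against 77.1 to 114 CPM in flox livers. That sum includes the called gene Lgals4, which made up 96.7 of the 191 CPM in iKO library 2. The sum therefore gives no support apart from Lgals4.

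**Figure D1:**
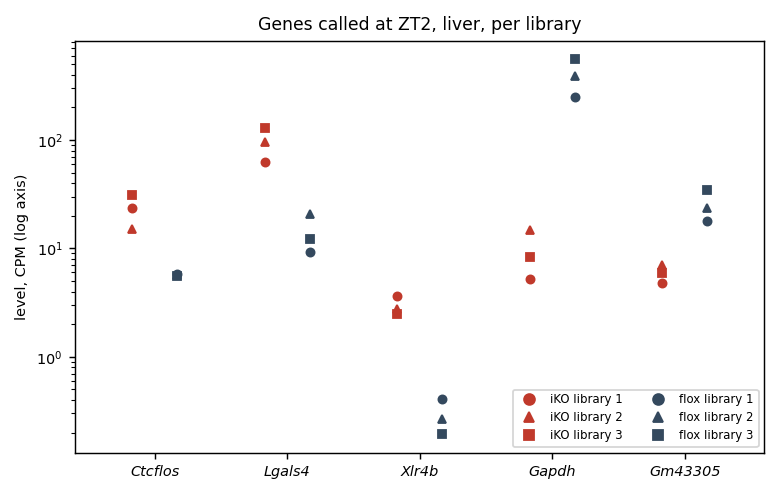
Level in CPM (log axis) of the 5 genes called at ZT2, one point per library, iKO libraries in red at the left of each pair and flox libraries in dark blue. No gene overlaps between the groups; Gapdh lies between 5.20 and 14.7 CPM in iKO livers, against 251 to 554 CPM in flox livers.

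Gapdh and Gm43305 were lower in iKO livers. Gapdh, the glycolytic enzyme often used as a reference gene, had 5.20, 14.7 and 8.40 CPM in iKO livers, against 251, 393 and 554 CPM in flox livers. The log2 difference was -5.41 (SE 0.46, adjusted p = 0.00632), the largest of the 5 called genes. Its level is uncertain, since 86 other genes share an exact 100-base stretch with it; their summed counts were 637, 1245 and 498 in iKO libraries, against 1083, 919 and 856 in flox libraries. Eno1, another glycolytic enzyme, had 207, 132 and 150 CPM in iKO livers, against 253, 190 and 269 CPM in flox livers. At other times Gapdh varied between livers of 1 genotype, from 3.31 CPM in an iKO liver at ZT22 to 453 CPM in an iKO liver at ZT18. Gm43305, a predicted gene, had 4.76, 7.02 and 5.87 CPM in iKO livers, against 17.8, 23.6 and 34.4 CPM in flox livers, a log2 difference of -2.10 (SE 0.27, adjusted p = 0.0311). It too shares stretches with 11 other genes, so its level is uncertain. The 10 of them that were counted summed to 2079, 3795 and 3787 counts in iKO libraries, against 3563, 6491 and 8081 in flox libraries. Gm43305 itself had only 88, 124 and 109 counts in iKO libraries, against 262, 529 and 533 in flox libraries.

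The calls were sensitive to single libraries. Only Gapdh was called at every one of the 6 omissions of a library, with a log2 difference from -5.87 to -5.10. Omitting flox library 1 kept all 5. Omitting iKO library 1 left 2 of the 5 calls, omitting iKO library 3 or flox library 3 left 1, and omitting flox library 2 left 4. Omitting iKO library 2 kept all 5 and called 149 genes higher (1.08% of 13853) and 129 lower (0.931%). The other omissions called 0 to 9 genes higher and 1 to 12 lower. With the ZT10 libraries in the fit Gapdh and Gm43305 lost their calls (adjusted p = 0.121 and 0.246), with all 36 liver libraries all 5 did, and DESeq2 on the same 6 libraries called 255 genes.

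The genes next in line by p were also separated between the groups but were not called. In 1005 tested genes (7.45%) all 3 iKO livers lay above all 3 flox livers, and in 1105 (8.2%) all lay below. Higher in iKO livers were Tsku, a secreted proteoglycan (52.7, 103 and 70.7 CPM, against 21.7, 28.5 and 25.6 CPM in flox livers; log2 difference 1.57, SE 0.26, adjusted p = 0.0684), and Tbx3, a transcription factor (32.9, 15.4 and 29.0 CPM, against 8.41, 8.53 and 8.01 CPM; 1.63, SE 0.27, adjusted p = 0.0708). Abcb4, the canalicular phospholipid exporter, had 368, 225 and 354 CPM in iKO livers, against 130, 110 and 120 CPM in flox livers (1.39, SE 0.24, adjusted p = 0.0786). Vwa8, Angptl4 and Pdilt, at log2 differences of 1.45, 1.20 and 1.43, completed the 8 higher genes with the smallest p among those whose log2 CPM averaged 1 or more, predicted genes left aside. Tsku, Tbx3 and Abcb4 rose when iKO library 2 was left out (adjusted p = 0.00714, 0.000457 and 0.00145). For Tsku, highest in iKO library 2, the log2 difference was smaller in that fit, at 1.29.

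On the lower side, Mid1ip1, which activates acetyl-CoA carboxylase, had 6.76, 9.34 and 6.36 CPM in iKO livers, against 17.6, 21.6 and 26.1 CPM in flox livers (log2 difference -1.54, SE 0.24, adjusted p = 0.0545). Igfbp5, which binds insulin-like growth factors, had 3.19, 3.45 and 2.05 CPM in iKO livers, against 7.74, 16.2 and 12.9 CPM in flox livers (-2.08, SE 0.32, adjusted p = 0.0545). Slc10a2, a bile acid uptake transporter, had a log2 difference of -1.84, Orm3, an acute phase protein, one of -3.01 and Arg1, the urea cycle enzyme, one of -1.38. In Arg1 the iKO livers had 597, 571 and 533 CPM, against 1664, 1112 and 1657 CPM in flox livers. Mid1ip1, Igfbp5, Slc10a2 and Arg1 fell when iKO library 2 was left out (adjusted p = 0.00275, 0.00668, 0.00662 and 0.0152), and Orm3 had an adjusted p of 0.0694.

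Fatty acid oxidation and ketone genes were higher in iKO livers 1 and 3 and near the flox level in iKO liver 2. None of the 47 tested members of this list was called, against 0.0371% of all genes. The median log2 difference was 0.84, against 0.01 over all genes tested, and 46 of 47 were positive. In 14 members all iKO livers lay above all flox livers, against 7.45% of all genes; in 25 members iKO livers 1 and 3 did and iKO liver 2 did not, against 7.37% of all genes. Without iKO library 2, left out because of its values, the list's median was 1.03 and 23 members rose, against 1.08% of all genes. Further genes named below were chosen after their values were seen, apart from the clock list and the 2 members of each list with the smallest p.

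The 2 members with the smallest p were omega-hydroxylases of the Cyp4a family, which hydroxylate fatty acids at their far end. Cyp4a32 had 57.6, 85.04 and 110 CPM in iKO livers, against 23.5, 17.7 and 6.85 CPM in flox livers (log2 difference 2.40, SE 0.43, adjusted p = 0.118). Cyp4a31 had 46.7, 11.4 and 50.6 CPM in iKO livers, against 2.99, 3.08 and 4.71 CPM in flox livers (3.34, SE 0.57, adjusted p = 0.121). In both, the groups did not overlap. Cyp4a14, a close relative, had 947, 35.3 and 1084 CPM in iKO livers, against 1.29, 17.2 and 47.8 CPM in flox livers. There iKO liver 2 lay inside the flox range. Cyp4a31 rose by 3.76 when iKO library 2 was left out (adjusted p = 5.89e-06), and Cyp4a32 and Cyp4a14 had adjusted p of 0.123 and 0.315. Reads shared among members of this family were not counted, so their levels are uncertain.

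Cpt1a and Ehhadh, of mitochondrial and peroxisomal oxidation, and Vnn1 were likewise highest in iKO livers 1 and 3. Cpt1a, which loads long-chain fatty acids for entry into mitochondria, had 212, 136 and 240 CPM in iKO livers, against 126, 145 and 116 CPM in flox livers. Ehhadh, a peroxisomal oxidation enzyme, had 199, 54.0 and 169 CPM in iKO livers, against 62.5, 63.3 and 79.1 CPM in flox livers. In both genes iKO livers 1 and 3 were above the flox range; iKO liver 2 was inside it in Cpt1a and below it in Ehhadh. Vnn1, a pantetheinase, went the same way with 136, 15.004 and 125 CPM in iKO livers, against 12.4, 15.7 and 15.7 CPM in flox livers. Ehhadh and Vnn1 rose by 1.43 and 3.16 when iKO library 2 was left out (adjusted p = 0.00275 and 5.89e-06), and Cpt1a had an adjusted p of 0.06.

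**Figure D2:**
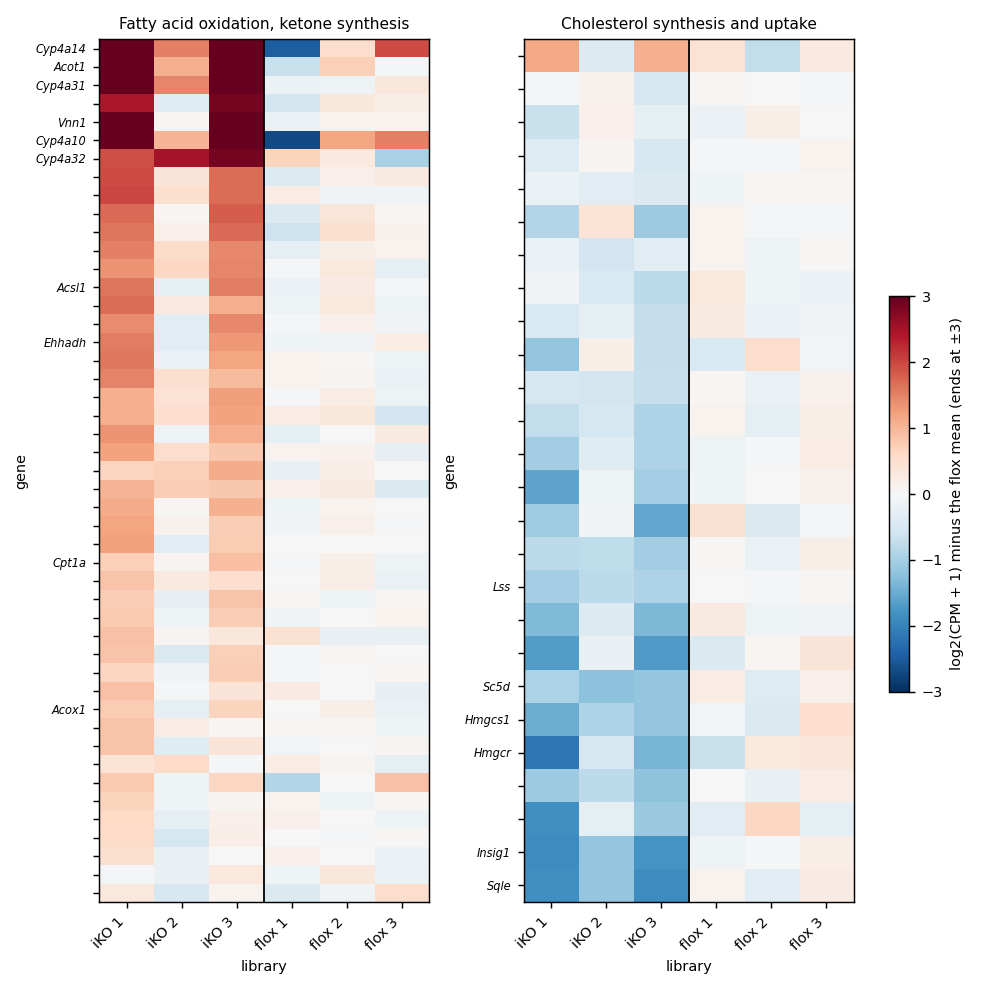
Every tested gene of 2 lists (rows, some of them labelled) in the 6 libraries (columns, iKO at the left of the black line), coloured by log2(CPM + 1) minus the mean of the 3 flox libraries, red for higher and blue for lower. Most of the 47 oxidation genes are red in iKO 1 and iKO 3 and paler in iKO 2; most of the 26 cholesterol genes are blue in all 3 iKO libraries.

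Several fat uptake, droplet and lipolysis genes were also highest in iKO livers 1 and 3. Of 29 listed, 26 were tested, none was called, and the median log2 difference was 0.56. Angptl4, which inhibits lipoprotein lipase, had 297, 198 and 260 CPM in iKO livers, against 103, 109 and 116 CPM in flox livers (log2 difference 1.20, SE 0.22, adjusted p = 0.0931). G0s2, an inhibitor of the lipase Pnpla2, had 179, 30.7 and 182 CPM in iKO livers, against 9.16, 9.92 and 14.02 CPM in flox livers (3.57, SE 0.70, adjusted p = 0.182). Plin2, a coat protein of lipid droplets, had 623, 114 and 475 CPM in iKO livers, against 129, 115 and 101 CPM in flox livers. Fgf21, a hormone released by liver, had 18.1, 0.283 and 15.9 CPM in iKO livers, against 0.679, 0.447 and 1.68 CPM in flox livers. Fgf21 is not of this list but of the insulin and fasting list, which as a whole did not rise. Of its 23 tested members 10 were positive and 13 negative, and its median was -0.09 (-0.20 without iKO library 2). Without iKO library 2, 8 of the 26 tested uptake, droplet and lipolysis genes rose, against 1.08% of all genes, and their median was 0.68. Angptl4, G0s2, Plin2 and Fgf21 rose in that fit, by 1.35, 4.03, 2.25 and 4.23 (adjusted p = 0.00294, 4.0e-06, 0.000186 and 0.000424).

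Fatty acid and triglyceride synthesis genes had lower levels in iKO livers, and in many of them iKO liver 2 was on the same side. Of 28 listed genes 27 were tested and none was called; the median log2 difference was -0.54 (-0.71 to -0.32 over the alternatives), and in 11 members all 3 iKO livers lay below all 3 flox livers, against 8.2% of all genes. Acly, which makes acetyl-CoA from citrate, had 15.9, 32.9 and 20.6 CPM in iKO livers, against 64.0, 52.4 and 72.8 CPM in flox livers (log2 difference -1.45, SE 0.27, adjusted p = 0.103). Srebf1, which encodes the SREBP-1 factor, had 104, 86.6 and 101 CPM in iKO livers, against 192, 227 and 191 CPM in flox livers (-1.06, SE 0.20, adjusted p = 0.103). Fasn, the fatty acid synthase, had 84.3, 146 and 99.4 CPM in iKO livers, against 347, 322 and 931 CPM in flox livers, and Thrsp had 44.5, 139 and 44.7 CPM in iKO livers, against 498, 362 and 750 CPM in flox livers. The groups of these 4 genes did not overlap. Elovl3, an enzyme that lengthens fatty acids, went the other way, with 638, 151 and 442 CPM in iKO livers, against 92.2, 33.2 and 95.1 CPM in flox livers. Without iKO library 2, 5 members fell, against 0.931% of all genes, and 1 rose, against 1.08%. Acly, Srebf1 and Thrsp fell in that fit (adjusted p = 0.00181, 0.0285 and 0.000186), Elovl3 rose (adjusted p = 0.0203), and Fasn had an adjusted p of 0.0686.

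Cholesterol synthesis and uptake genes had lower fitted levels in iKO livers in 25 of 26 tested members. None was called, the median log2 difference was -0.78, and in 15 members all 3 iKO livers lay below all flox livers, against 8.2% of all genes. Sqle, which oxidises squalene, had 18.2, 29.9 and 17.7 CPM in iKO livers, against 73.6, 53.9 and 80.7 CPM in flox livers (log2 difference -1.66, SE 0.26, adjusted p = 0.0545). Insig1, which holds SREBP factors in the endoplasmic reticulum, had 88.3, 147 and 93.6 CPM in iKO livers, against 296, 318 and 374 CPM in flox livers (-1.59, SE 0.25, adjusted p = 0.0545). Hmgcs1, an early enzyme of the pathway, had 252, 371 and 313 CPM in iKO livers, against 672, 527 and 1001 CPM in flox livers. In each of the 3 genes, every iKO liver was below every flox liver, and iKO liver 2 was the highest of the iKO livers. Without iKO library 2, 14 members fell, against 0.931% of all genes; among them were Sqle, Insig1 and Hmgcs1 (adjusted p = 0.00126, 0.00112 and 0.0285).

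Promoter sequences from RefSeq (GRCm38.p6, 250 bases before to 50 after the start) were found by symbol for 10107 of the 13483 tested genes, under 80%, so the shares below are not a check over the set. The motifs, searched on both strands, were the E-box CACGTG (11.6% of those promoters), the D-box TTATGTAA (0.732%), a PPAR-type direct repeat (0.336%) and an SREBP-type TCACNCCAC (1.41%). None of the 5 called genes' promoters held any of the 4. Of 18 promoters of the cholesterol list, 1 held the SREBP-type motif, that of Hmgcs1. None of 34 promoters of the oxidation list held the PPAR-type repeat. Of 16 promoters of the clock list, 5 held the E-box. Whether any factor acted on these promoters was not tested. Hmgcs1 and the clock repressor Cry1 are shown because each held a motif of the factor family known to act on it, capitals marking the motif, at chr13:119690174-119690262 (+ strand) and chr10:85185069-85185154 (- strand).
Hmgcs1: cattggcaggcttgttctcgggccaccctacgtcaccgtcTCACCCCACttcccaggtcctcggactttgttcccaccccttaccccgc
Cry1: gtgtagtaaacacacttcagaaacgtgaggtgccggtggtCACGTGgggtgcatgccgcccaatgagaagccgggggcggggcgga

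Of 21 listed clock genes 20 were tested and none was called; the median log2 difference was 0.29 (0.12 to 0.44 over the alternatives). Without overlap, 1 lay above (Cry1), against 7.45% of all genes, and 1 below (Bhlhe40), against 8.2%, so these counts are near the share over all genes. Cry1, a repressor, had 9.96, 4.02 and 11.7 CPM in iKO livers, against 2.85, 3.17 and 3.10 CPM in flox livers (log2 difference 1.49, SE 0.37, adjusted p = 0.176). Without iKO library 2, Cry1 rose by 1.83 (adjusted p = 0.00275). Npas2, the partner of Bmal1, was too low to be tested and had 3.25, 0.226 and 7.00 CPM in iKO livers, against 0.611, 0.268 and 0.517 CPM in flox livers. Among the others, Nr1d1 had a log2 difference of 0.37, Per1 of 0.24, Dbp of 0.29 and Per3 of -0.23, and the sign changed for Per1, Dbp and Per3 when 1 library was left out. Per3 had 9.69, 39.7 and 17.8 CPM in iKO livers, against 21.6, 43.3 and 13.6 CPM in flox livers, and Ciart had 1.30, 18.9 and 5.06 CPM in iKO livers, against 3.12, 10.6 and 5.10 CPM in flox livers. In both of these repressors library 2 was the highest of its group.

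**Figure D3:**
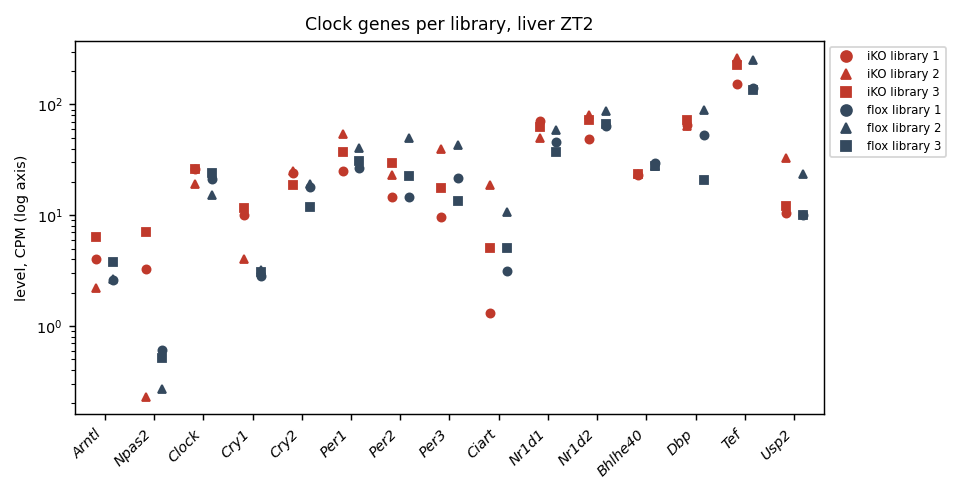
Level in CPM (log axis) of 15 clock genes, one point per library, iKO in red at the left and flox in dark blue at the right of each gene. Cry1 and Bhlhe40 separate the groups; in Npas2 iKO libraries 1 and 3 have 3.25 and 7.00 CPM, and the other libraries lie at 0.611 CPM or lower.

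Among bile acid and sugar metabolism genes, Gapdh alone was called. Of 25 tested bile acid genes, 4 lay above without overlap, against 7.45% of all genes, and 4 below, against 8.2%. Of 26 tested genes of glycolysis, fructose and pentose phosphate, 20 had negative log2 differences, 3 lay above and 7 below without overlap, and the median was -0.36 (-0.45 to -0.17 over the alternatives). Akr1d1, a reductase of bile acid synthesis, had 45.4, 74.3 and 48.1 CPM in iKO livers, against 112, 128 and 166 CPM in flox livers (log2 difference -1.28, SE 0.25, adjusted p = 0.11). Cyp7a1, the rate-limiting enzyme, had 21.9, 101 and 32.4 CPM in iKO livers, against 48.0, 57.0 and 68.6 CPM in flox livers, so iKO liver 2 was above and iKO livers 1 and 3 below the flox range; the log2 difference was -0.17 with and -1.09 without iKO library 2. Pdk4, the kinase that shuts off pyruvate oxidation, had 12.6, 3.51 and 13.5 CPM in iKO livers, against 2.92, 1.47 and 2.45 CPM in flox livers (2.13, SE 0.49, adjusted p = 0.175). In Pdk4 the groups did not overlap. Akr1d1 and Cyp7a1 fell when iKO library 2 was left out (adjusted p = 0.00374 and 0.0372), and Pdk4 rose by 2.53 (adjusted p = 0.00119). Cyp26a1, which breaks down retinoic acid, had 2.65, 5.04 and 1.83 CPM in iKO livers, against 45.3, 21.1 and 17.3 CPM in flox livers (-3.14, SE 0.48, adjusted p = 0.0931), and fell without iKO library 2 (adjusted p = 0.00872).

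Genes of nitrogen and methyl metabolism held no call. Of 39 tested genes that break down amino acids or make urea, 1 lay above without overlap, against 7.45% of all genes, and 5 below, against 8.2%, so the list was near the background; its median log2 difference was -0.06, with its sign changing in 2 alternatives. Hal, which starts the breakdown of histidine, had 232, 234 and 201 CPM in iKO livers, against 382, 398 and 384 CPM in flox livers (-0.80, SE 0.20, adjusted p = 0.177). Of 22 tested methionine and one-carbon genes 9 lay below without overlap, against 8.2% of all genes, and 1 above, against 7.45%. Bhmt, which remethylates homocysteine, had 1633, 1958 and 1348 CPM in iKO livers, against 3486, 2604 and 4055 CPM in flox livers. In Bhmt every iKO liver was below every flox liver, and without iKO library 2 it fell (adjusted p = 0.0419).

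Stress, hormone and immune lists held no called gene. Glucocorticoid targets had a median log2 difference of -0.45 over 22 tested genes (-0.72 to -0.27 over the alternatives; -0.72 without iKO library 2); Tsc22d3, a classical target, had 71.7, 98.7 and 69.1 CPM in iKO livers, against 130, 103 and 213 CPM in flox livers. Acute phase proteins had a median of -0.58 over 29 (-0.83 to -0.11 over the alternatives). Their summed level was 66030, 65150 and 53615 CPM in iKO livers, against 154851, 46152 and 84895 CPM in flox livers, so the groups overlapped and flox library 1 stood apart. Orm3 had 4.06, 6.17 and 5.39 CPM in iKO livers, against 73.8, 23.1 and 29.6 CPM in flox livers. Mitochondrially encoded genes had a median of -0.63 over 13 (range over the alternatives -0.91 to -0.32); their share of counts by library is given above, and its part in the result was not tested. Interferon-stimulated genes had a median of -0.14 over 40 and nuclear oxidative phosphorylation genes one of 0.12 over 39, each with the sign changed in 1 alternative. Antigen presentation genes had a median of -0.23 over 25 (-0.37 to -0.038 over the alternatives), cell cycle genes one of -0.31 over 29 (-0.49 to -0.0040) and male-biased liver genes one of 0.41 over 27 (0.29 to 0.60). Igfbp2, a secreted binding protein of insulin-like growth factors, had 725, 411 and 503 CPM in iKO livers, against 283, 302 and 204 CPM in flox livers, with no overlap.

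Markers of other cells were given as levels. Kupffer cell markers had a median log2 difference of -0.75 over 17 tested of 18 listed, with 9 below without overlap, against 8.2% of all genes; their summed level was 352 to 445 CPM in iKO livers, against 476 to 673 CPM in flox livers. Periportal hepatocyte markers had a median of -0.73 over 10, with a summed level of 4042 to 5706 CPM in iKO livers, against 6446 to 7847 CPM in flox livers. Pericentral markers had a median of 0.35 (0.25 to 0.55 over the alternatives). Their summed level was 8423 to 14585 CPM in iKO livers, against 7753 to 9985 CPM in flox livers, so the groups overlapped. When iKO library 2 was left out, 4 of the 10 periportal markers fell, against 0.931% of all genes. The 4 tested neutrophil markers were all negative, with a median of -0.98, and the 12 listed summed to 9.91 to 13.1 CPM in iKO livers, against 17.2 to 24.4 CPM in flox livers; Ly6g was at 0 in all 6 libraries. The 5 tested adipocyte markers had a median of 0.51 (0.29 to 0.71 over the alternatives), the 10 listed summed to 560 to 1821 CPM in iKO livers, against 1140 to 2453 CPM in flox livers, and Adipoq, Lep and Retn were at 0.

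**Figure D4:**
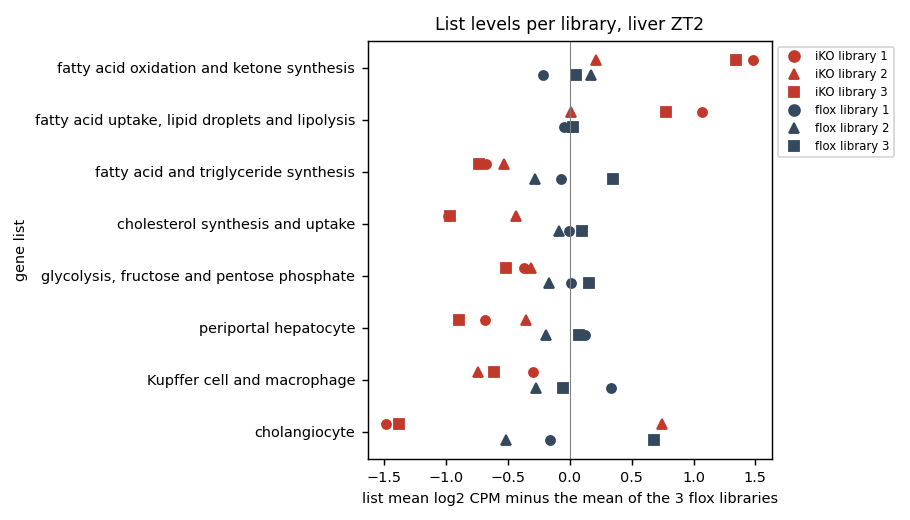
Mean log2 CPM of the tested genes of 8 lists in each library, minus the mean of the 3 flox libraries, iKO points above flox points in each row. In fatty acid oxidation iKO libraries 1 and 3 lie apart from the other 4; in cholesterol synthesis all 3 iKO libraries lie below the flox libraries; in cholangiocyte markers iKO library 2 lies apart from iKO 1 and 3.

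At ZT10, tested in 6 other liver libraries that share none with ZT2, 297 genes were called, 177 higher (1.3%) and 120 lower (0.88%). Of the 16 genes named by smallest p at ZT2, 8 each way under the limits above, 14 had the same sign at ZT10, against 58% of all genes tested at both times. Among these 16, Tsku at ZT14 (log2 difference -1.37), Gapdh at ZT18 (4.27) and Vwa8 at ZT22 (-0.72) lay in the opposite order in liver without overlap. The called gene Xlr4b did so at ZT22 (-2.20). Genes that kept their order at those times were not counted. Insig1 had 91.3, 105 and 145 CPM in iKO livers at ZT10, against 321, 277 and 240 CPM in flox livers, and fell by 1.29 on the log2 scale there (adjusted p = 0.00804). Abcb4, Angptl4 and G0s2 rose at ZT10 by 1.23, 1.42 and 2.49 (adjusted p = 0.0056, 0.0418 and 0.00194). In Sqle the groups overlapped at ZT10: 24.2, 36.6 and 47.7 CPM in iKO livers, against 31.0, 44.1 and 49.1 CPM in flox livers. Of the 47 oxidation genes 15 rose at ZT10, and the list's median was 0.76.

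The genotype effect at ZT2 was not shown to differ from that at ZT10. No gene of 14412 was called for the difference (lowest adjusted p = 0.218; 1226 genes at an unadjusted p under 0.05, and 11 called with DESeq2). Between ZT2 and ZT14, 2 genes were called higher (0.0137%) and 1 lower (0.00687%), and between ZT2 and ZT18 1 was called lower (0.00679%). At an unadjusted p under 0.05 there were 2882 genes against ZT14 and 2368 against ZT18. Against ZT6 and ZT22 none was called (161 and 585 genes at an unadjusted p under 0.05). Medians of the oxidation list at ZT6, ZT14, ZT18 and ZT22 were 0.33, 0.14, 0.13 and -0.35, and those of the cholesterol list -0.56, 0.15, -1.18 and 0.18. In kidney and white adipose tissue at ZT2 the oxidation list had medians of 0.37 and 0.37, and no gene was called in either tissue.

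**Figure D5:**
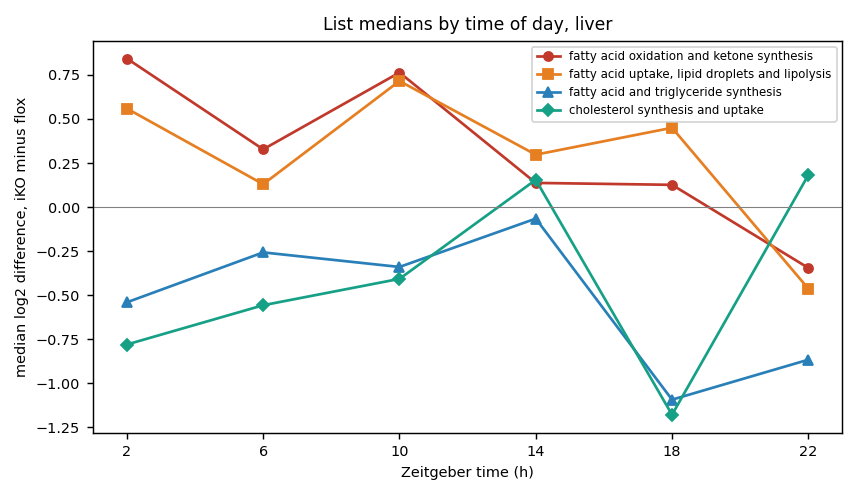
Median log2 difference, iKO minus flox, of 4 gene lists in liver (y axis) at each Zeitgeber time (x axis, h), each time fitted alone on 6 libraries. The oxidation list is highest at ZT2 (0.84) and ZT10 (0.76), and the cholesterol list lowest at ZT18 (-1.18).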

How the data were processed

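Messenger RNA was measured in 3 iKO and 3 flox liver libraries at ZT2. The authors deposited a table of raw read counts for every gene. Per the labels' protocols, Trizol was used for RNA and a NEBNext Ultra kit for libraries, read at 150 bp. Per the submitters' processing notes the genome was GRCm38 (mm10), with DESeq2 1.16.1, featureCounts 1.5.0-p3 and HISAT2 2.0.4 among the tools. Whether counting used strand was not stated, so overlapping and antisense genes cannot be told apart. Of 52083 gene identifiers also in GENCODE M21 (GRCm38), only 2.87% had the same start and end in the deposited table, so the table's coordinates were not used; promoter coordinates are RefSeq's. Deposited counts were used as they are, and counting error is part of every spread.

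Counts were filtered with filterByExpr, scaled with TMM and tested with edgeR 4.0.16 (R 4.3.3, quasi-likelihood, iKO minus flox, Benjamini-Hochberg over 13483 genes, threshold 0.05). CPM use TMM-scaled totals. Alternatives were DESeq2 1.42.0, RLE size factors, library totals alone, no filter, a replicate block, larger fits and each library left out. Simulated 3-against-3 data of 13483 genes gave 24% recovery of 2-fold and 86% of 4-fold changes. Each simulated gene had the trended dispersion of the ZT2 comparison, the spread usual at its level, and no library stood apart. Spread particular to single genes was left out, so these shares do not measure recovery in the ZT2 data. No pair of the 6 libraries agreed within sampling noise (lowest chi-square per degree of freedom 41.6). Named genes are the clock list, all called genes, the 8 smallest p each way (mean log2 CPM 1 or more, passing over predicted genes, pseudogenes and clone names), and the 2 smallest p per list. The members, lists, rules and tests were chosen with earlier results of these data known. Some genes of the lists are counted but not reported by name here.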

Additional observations from a re-analysis of the deposited data

Results flagged for a closer look

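The genotype effect on Gapdh at ZT2 differed from that at ZT18 by -9.68 in log2 units (SE 0.90, adjusted p = 0.00329): it was lower in iKO livers at ZT2, and at ZT18 had 314, 453 and 108 CPM in iKO livers, against 16.97, 7.94 and 20.4 CPM in flox livers. The effect on Egr1, an immediate early factor, differed between ZT2 and ZT14 by -6.30 (adjusted p = 0.028): 14.3, 17.6 and 12.7 CPM in iKO livers at ZT2, against 27.1, 70.8 and 39.9 CPM in flox livers; at ZT14 71.8, 35.8 and 15.2 CPM in iKO livers, against 0.622, 1.73 and 2.37 CPM in flox livers. Bhmt, Elovl6, Ifih1, Pdilt and Tsku lay in opposite orders without overlap in liver and in another tissue at ZT2, and the difference between tissues was not tested. In kidney Bhmt (log2 difference 3.06), Elovl6 (0.81) and Ifih1 (0.39) were higher in iKO, and Pdilt (-0.44) was lower; in white adipose tissue Tsku was lower (-0.74).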

How the results depend on the processing

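The count of calls at ZT2 (3 higher, 2 lower) depended on the fit. DESeq2 called 126 higher and 129 lower, the fit with no low-count filter 235 and 219 of 24103 genes, RLE size factors 3 and 6, library totals alone 2 and 1, the 12 libraries of ZT2 and ZT10 together 25 and 22, and all 36 liver libraries 0 and 0 (406 and 301 at an unadjusted p under 0.05). The unfiltered and the 36-library fits used other estimates of spread, with common biological coefficients of variation of 0.3 and 0.514, against 0.27 in the ZT2 fit. The median prior degrees of freedom, the weight given to the spread shared by genes, were infinite in the unfiltered fit. They were 3.36 in the 36-library fit and 7.86 in the ZT2 fit. The cause of the differing counts was not tested. Library totals moved the median of all genes to 0.2 on the log2 scale, so changes under that scaling are relative to it. Leaving out 1 library gave 0 to 149 higher and 1 to 129 lower, both highest without iKO library 2. All 5 calls were kept under DESeq2, RLE, no filter and the replicate block, 3 under library totals, 3 with ZT10 and 0 with all 36 libraries. For the difference between ZT2 and ZT10 (0 and 0), DESeq2 called 5 higher and 6 lower and the unfiltered fit 125 and 62, and leaving out 1 library gave 0 to 2 higher and 0 to 1 lower; RLE size factors and the 36-library fit gave 0.

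Whether the replicate numbers pair the libraries could not be settled with 3 libraries in each group. Deviations of same-numbered libraries correlated by 0.2, 0.086 and 0.073. iKO libraries 1 and 2 each correlated best with the flox library of the same number, and iKO library 3 with flox library 2 (0.13). With the replicate number as a block, 25 genes were called higher and 18 lower at ZT2, and 45 higher and 11 lower for the difference from ZT10, and Ciart had -0.017 and Krt19 -0.67.

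Among named genes 10 uncalled clock genes, Cyp7a1 and Krt19 changed sign. Library totals gave Nr1d2 0.068, Rora 0.11 and Cyp7a1 0.023. Leaving out 1 library gave Per1 -0.071 to 0.48, Per2 -0.69 to 0.27, Per3 -0.94 to 0.33, Dbp -0.10 to 0.83, Usp2 -0.38 to 0.85, Nr1d2 -0.27 to 0.072, Rora -0.22 to 0.051, Hlf -0.0029 to 0.16, Ciart -0.99 to 1.01, Bhlhe41 -0.34 to 0.53, Cyp7a1 -1.09 to 0.20 and Krt19 -3.10 to 1.72. At 3 against 3 libraries, 2-fold changes were mostly missed in simulated data, so a difference of that size may go uncalled.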
